A study of Rattus norvegicus with 30 samples.

Results

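The comparison set cultured rat liver cells given 1 µM beta-naphthoflavone (BNF) for 48 h against cells given the vehicle, 1% dimethyl sulfoxide (DMSO), for the same time. BNF is a synthetic flavonoid that binds the aryl hydrocarbon receptor (AhR). The 10 arrays, 5 per group, were chosen by their titles from 30 arrays that also covered 24 h and 100 µM BNF. All 14217 genes with a probe set of a single symbol were examined. Both groups were hepatocytes of male Sprague Dawley rats, bought frozen, plated on collagen, overlaid with Matrigel and dosed on day 3 of culture, and the BNF was given in DMSO. Each replicate was a separate well. The labels give neither the animals' age nor how many animals the cells came from, so each p-value speaks of variation among wells, which may be technical. Liver marker genes were bright: by mean log2 signal over all 30 arrays, all 13 measured hepatocyte markers lay above the median gene. Albumin (Alb) was among them, at 77969.6 ± 8964 (SD, n = 5) in vehicle and 71014 ± 3424 with BNF.

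AhR rests in the cytoplasm with heat shock protein partners. On binding a ligand it enters the nucleus, pairs with Arnt and binds short DNA elements that hold the core GCGTG. Its best known targets in liver are the cytochromes P450 Cyp1a1 and Cyp1a2, with Nqo1 and other enzymes that oxidise, reduce or conjugate foreign chemicals, and its repressor Ahrr and the enzyme Tiparp dampen the response.

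At 48 h, 115 of 14217 genes (0.809%) passed the test, limma with Benjamini-Hochberg adjusted p under 0.05 over all genes, which is what "called" means below. Of these, 41 were higher with BNF (0.288%) and 74 were lower (0.521%), and 1579 genes had an unadjusted p under 0.05. The changes were small. The median called gene moved 1.31-fold up or 1.30-fold down, and 13 genes moved at least 2-fold, 8 of them up. Cyp1a1, Cyp1a2, Nqo1, Cyp2a1 and the aldo-keto reductase Akr1b8 were among the higher genes, and the pentraxin Crp, Gamt of creatine synthesis, the matrix protein Ccn2, the glucuronosyltransferase Ugt2b and the retinol dehydrogenase Rdh7 were among the lower ones.

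**Figure D1:**
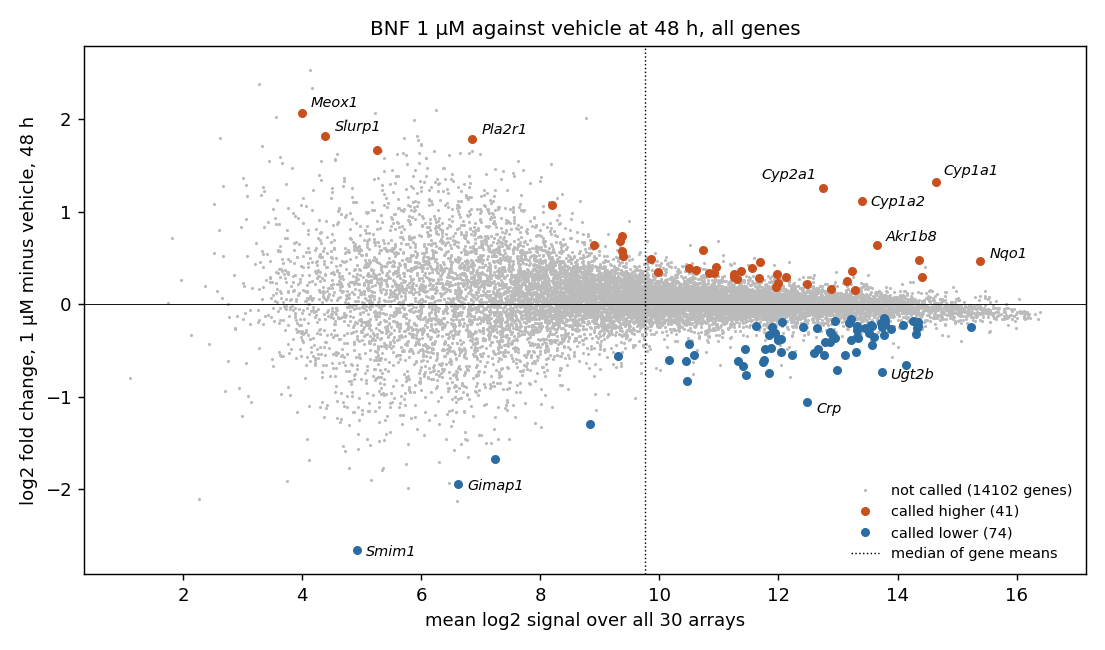
Each point is a gene, with its mean log2 signal over all 30 arrays on the horizontal axis and its log2 fold change, 1 µM BNF minus vehicle at 48 h, on the vertical axis; 41 called genes are orange, 74 are blue and grey genes were not called. The named genes on the right (Cyp2a1, Cyp1a1, Cyp1a2) stand clear of the grey cloud, while the largest folds on the left (Meox1, Smim1) belong to dim genes, for which the cloud is wide.

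The number of calls depended on which arrays and which scaling were used. Without a single array it was 60, 76, 70 or 63 (without BNF replicate 1, 3, 4 or 5) and 46, 67, 76 or 75 (without vehicle replicate 1, 3, 4 or 5). It rose to 153 without BNF replicate 2 and to 143 without vehicle replicate 2. A fit of the 10 arrays alone called 30 genes, 8 higher and 22 lower. The median signal of an array was 399 ± 17.6 (SD, n = 5) with BNF and 377 ± 8.81 in vehicle (two-sided exact permutation p = 0.0238, adjusted p = 0.119 over 5 array measures). Centring each array on its median shifted the median gene from a log2 fold change of 0.02 to -0.05 and called 66 genes, 8 higher and 58 lower, or 12.1% higher against 35.7% as deposited. Among 55 called genes named by the rule given under processing, 17 kept their call under all 9 alternative settings and without each of the 10 arrays in turn: Cyp1a2, Nqo1, Cyp2a1, Akr1b8, Crp, Apcs, Gamt, Ccn2, Ugt2b, Rdh7, Cyp2e1, Scd, Acly, Pdk4, Angptl4, Gucy2c and Poteml2. The rule chose the 15 leading genes in each direction for groups that do not overlap, so for them that separation is a description and adds no support.

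The upstream sequences of AhR battery members and of the leading higher genes are shown so that the response of each can be read beside its promoter. Each is the 250 bases before a start site in RefSeq (assembly GRCr8), 5′ to 3′ on the gene's strand, with any core GCGTG, or CACGC on the other strand, in capitals. The first 4 windows hold the core, and the last 3 do not.
Nqo1, chr19:52220268-52220517, minus strand: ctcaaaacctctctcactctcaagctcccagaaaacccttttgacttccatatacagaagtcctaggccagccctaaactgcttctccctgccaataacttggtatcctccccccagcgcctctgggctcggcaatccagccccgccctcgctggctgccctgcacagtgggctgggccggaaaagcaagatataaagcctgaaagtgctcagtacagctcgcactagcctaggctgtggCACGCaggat
Cyp1b1, chr6:21094315-21094564, plus strand: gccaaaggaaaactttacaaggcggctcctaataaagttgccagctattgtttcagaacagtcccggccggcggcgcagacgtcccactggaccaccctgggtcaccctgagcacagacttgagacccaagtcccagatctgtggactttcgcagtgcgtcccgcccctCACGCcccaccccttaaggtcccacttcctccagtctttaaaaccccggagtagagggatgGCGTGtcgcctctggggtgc
Tiparp, chr2:152063519-152063768, plus strand: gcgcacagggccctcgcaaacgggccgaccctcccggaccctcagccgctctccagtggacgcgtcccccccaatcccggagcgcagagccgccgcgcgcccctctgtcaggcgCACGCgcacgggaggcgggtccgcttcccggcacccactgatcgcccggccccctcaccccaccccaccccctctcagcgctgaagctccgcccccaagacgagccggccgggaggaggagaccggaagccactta
Ahrr, chr1:30821969-30822218, plus strand: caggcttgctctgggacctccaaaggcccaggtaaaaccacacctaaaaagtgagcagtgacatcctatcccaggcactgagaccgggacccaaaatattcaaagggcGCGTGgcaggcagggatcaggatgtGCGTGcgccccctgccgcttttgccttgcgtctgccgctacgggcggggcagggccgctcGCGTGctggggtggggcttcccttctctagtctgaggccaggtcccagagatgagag
Cyp1a2, chr8:66978150-66978399, minus strand: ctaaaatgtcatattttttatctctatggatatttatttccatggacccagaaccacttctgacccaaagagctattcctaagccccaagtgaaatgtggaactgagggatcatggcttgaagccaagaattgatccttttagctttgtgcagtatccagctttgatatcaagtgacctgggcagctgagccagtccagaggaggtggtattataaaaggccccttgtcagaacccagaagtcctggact
Cyp2a1, chr1:91359028-91359277, plus strand: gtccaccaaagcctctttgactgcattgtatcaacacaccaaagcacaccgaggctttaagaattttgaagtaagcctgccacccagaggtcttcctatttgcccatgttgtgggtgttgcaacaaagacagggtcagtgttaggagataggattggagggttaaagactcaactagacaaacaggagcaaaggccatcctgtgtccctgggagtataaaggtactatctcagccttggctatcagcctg
Akr1b8, chr4:63964171-63964420, plus strand: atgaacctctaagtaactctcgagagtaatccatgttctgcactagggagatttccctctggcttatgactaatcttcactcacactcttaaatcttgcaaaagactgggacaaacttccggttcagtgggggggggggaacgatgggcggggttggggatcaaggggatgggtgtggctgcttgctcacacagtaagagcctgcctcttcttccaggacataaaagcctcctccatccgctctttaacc

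Of the 8 AhR battery genes, 6 had a window and 4 of these held the core: Nqo1 once, Cyp1b1 in 2 places, Tiparp once and Ahrr in 3 places. Cyp1a2 and Cyp2s1 had none in these bases, and Cyp1a1 and Aldh3a1 had no window. Among the called genes, 16 of 36 windows of higher genes (44.4%) and 31 of 68 windows of lower genes (45.6%) held the core. The share over all genes tested was 39.6% of 13242 windows, and over the whole table it was 25.9% of 33469 windows. The share was thus near the background in both directions. The battery genes that held the core and those that did not each included called and uncalled members: Nqo1 and Cyp1a2 were called, and Cyp1b1, Tiparp, Ahrr and Cyp2s1 were not.

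The AhR battery had 3 of 8 members called, all higher (0.288% of all genes were): Cyp1a1, Cyp1a2 and Nqo1. The list's median log2 fold change was 0.34, against 0.02 over all genes, and all 8 values were positive, although 2 of the 8 were negative after median centring and 1 after quantile normalization.

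Cyp1a1, the P450 most widely used as a readout of AhR activity, had signals of 11080.1, 6211, 7444, 6523 and 16365 in the vehicle wells and 14997, 27249.7, 19856, 24113 and 26819 in the BNF wells. The groups overlapped, because vehicle replicate 5 exceeded BNF replicate 1, and the vehicle wells alone spanned a wide range. The rise was 2.49-fold (log2 fold change 1.32, SE 0.20, adjusted p = 0.000365). It was not called in the fit of the 10 arrays alone (adjusted p = 0.0529). Cyp1a2, which metabolises caffeine and aromatic amines, had signals of 3488, 2486, 3434, 3293 and 4169.6 in vehicle and 6354, 8875, 6503, 7250.4 and 7437 with BNF. Every BNF well was above every vehicle well, and the rise was 2.17-fold (log2 fold change 1.12, SE 0.11, adjusted p = 5.16e-07).

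Nqo1, a quinone reductase under both AhR and NRF2 control, had 33309.7, 33798, 29856, 30304 and 28775 in vehicle and 43366, 41881, 41431, 44211 and 43585 with BNF. The groups were well apart and tight, with SDs of 2218 and 1183. It rose 1.38-fold (log2 fold change 0.46, SE 0.07, adjusted p = 0.000164).

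The remaining members were not called. Cyp1b1, a P450 of steroid and hydrocarbon oxidation, had 522 to 937 in vehicle and 603 to 925 with BNF, ranges that nearly coincided, with a log2 fold change of 0.16 (SE 0.17). Tiparp, an ADP-ribosyltransferase that represses AhR, had 2409 to 3622 in vehicle and 2604 to 3048 with BNF, a log2 fold change of 0.02 (SE 0.08). Its standard error was the smallest among the uncalled members. Aldh3a1, an aldehyde dehydrogenase, had 89.3, 238, 72.1, 144 and 82.4 in vehicle and 169, 169, 175, 241 and 249.7 with BNF, so that 1 vehicle well lay among the BNF wells. Its log2 fold change was 0.81 with an SE of 0.37 (adjusted p = 0.412). Ahrr, the AhR repressor, was dim and scattered, 30.4 to 207 in vehicle and 26 to 233 with BNF, and the SE of 0.74 does not allow a statement either way. Cyp2s1, another P450, had a log2 fold change of 0.07 (SE 0.17).

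**Figure D2:**
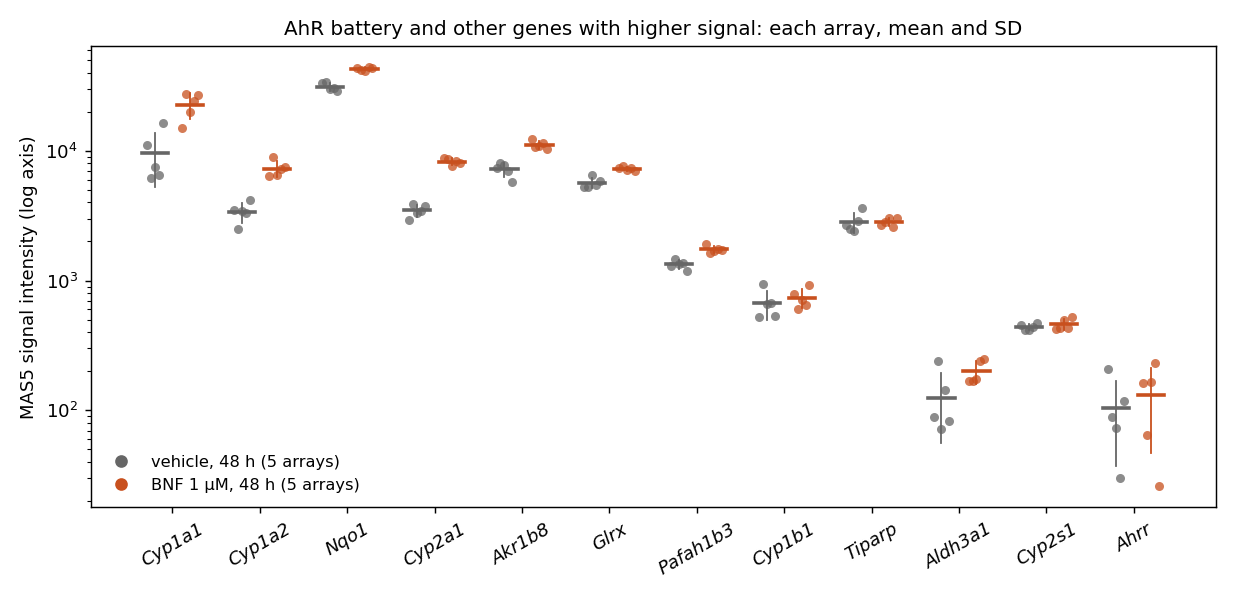
Signal intensity (log axis) of 12 genes in each of the 5 vehicle (grey) and 5 BNF wells (orange) at 48 h, with the group mean as a bar and the SD as a line. Cyp1a2, Nqo1, Cyp2a1, Akr1b8, Glrx and Pafah1b3 separate completely, Cyp1a1 does so except for 1 pair of wells, and Cyp1b1, Tiparp, Aldh3a1, Cyp2s1 and Ahrr overlap.

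For the receptor and its partners, 0 of 11 measured members of the complex and its cofactors were called, with a median log2 fold change of -0.09. Over all genes 0.809% were called, so 0 of 11 is near that share and does not show that the members were unchanged. Ahr itself had 337, 362, 315, 366 and 392 in vehicle and 284, 387, 381, 414 and 392 with BNF, and the log2 fold change was 0.06 (SE 0.19). Arnt, its DNA-binding partner, was dim at 27.6 to 160.2 in vehicle and 82.8 to 179.8 with BNF (log2 fold change 0.60, SE 0.53). Of the cytoplasmic partners, Hsp90ab1 had a log2 fold change of -0.09 (SE 0.07) and Ptges3, the p23 co-chaperone, -0.04 (SE 0.05). The co-activators Ncoa1 (-0.20, SE 0.11), Ep300 (-0.06, SE 0.13) and Crebbp (-0.14, SE 0.06), and the corepressor Nrip1 (-0.11, SE 0.07) on the log2 scale, were not called either.

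Outside the battery, the largest rise among called genes above the median signal was in Cyp2a1, the testosterone 7α-hydroxylase of rat liver. Its signals were 2930.0, 3888, 3328, 3458 and 3754 in vehicle and 8736, 8638, 7635, 8308 and 7976 with BNF. The lowest BNF well was far above the highest vehicle well. The rise was 2.39-fold (log2 fold change 1.26, SE 0.06, adjusted p = 1.09e-14), the smallest p of all genes tested in this comparison. Cyp2a1 was the only member called higher among 19 P450s and P450 partners outside the battery.

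Akr1b8, an aldo-keto reductase that reduces reactive aldehydes, had 7319.6, 8041, 7749, 6988 and 5746 in vehicle and 12317, 10666, 10918, 11376 and 10367 with BNF. The wells did not overlap and the rise was 1.56-fold (log2 fold change 0.64, SE 0.07, adjusted p = 4.89e-06). Akr1b8 and Nqo1 were the only called members of 21 NRF2 targets, against 0.288% of all genes called higher. The median of these oxidant response genes was -0.00. Glrx, glutaredoxin, which removes glutathione from proteins, had 5258, 5273, 6458, 5476 and 5871 in vehicle and 7339.9, 7614, 7058, 7308 and 7029 with BNF. The rise was 1.29-fold (adjusted p = 9.17e-05). It was not called after median centring (adjusted p = 0.0656). Pafah1b3, a subunit of an enzyme that inactivates platelet-activating factor, had 1183 to 1462 in vehicle and 1622 to 1926 with BNF. It rose 1.31-fold (adjusted p = 0.01), but not by the test in the fit of the 10 arrays alone (adjusted p = 0.063) or after median centring (adjusted p = 0.153).

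Other genes on the higher side had folds of 1.25 to 1.41 and less secure calls. They were the glycogen phosphorylase Pygb (1.32-fold), the membrane scaffold Flot2 (1.31-fold), the complement protease C1r (1.25-fold), the ubiquitin ligase Rnf123 (1.26-fold), the RNA exosome subunit Exosc5 (1.28-fold), the RNA-binding protein Stau2 (1.27-fold), Plekhm2 (1.41-fold), Tmem107 (1.27-fold) and Uap1l1 (1.29-fold). None was called after median centring (adjusted p = 0.0833 for Pygb to 0.312 for Exosc5). Apart from Pygb and Flot2, none was called in the fit of the 10 arrays alone either (adjusted p = 0.095 for Uap1l1 to 0.159 for Tmem107). Pygb lost its call without vehicle replicate 1 (adjusted p = 0.0506). Flot2 lost it without BNF replicate 1, 3 or 4 or vehicle replicate 1 or 3 (up to 0.0744), and C1r without BNF replicate 1 or 3 or vehicle replicate 3, 4 or 5 (up to 0.127). Plekhm2 and Stau2 kept their call only without vehicle replicate 2, Exosc5 only without BNF replicate 5 or vehicle replicate 2, Tmem107 only without BNF replicate 2 or vehicle replicate 2, Uap1l1 only without BNF replicate 2 or 3 or vehicle replicate 2, and Rnf123 only without BNF replicate 2 or 4 or vehicle replicate 2, with adjusted p up to 0.162, 0.126, 0.163, 0.199, 0.148 and 0.132 otherwise. Averaged over all probe sets of the gene, Stau2 (adjusted p = 0.92), Rnf123 (adjusted p = 0.947), Uap1l1 (adjusted p = 0.415) and Exosc5 (adjusted p = 0.0527) were not called. A further probe set of Stau2 (log2 fold change -0.28, SE 0.11) and a further one of Rnf123 (-0.11, SE 0.73) had the opposite sign.

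The complement component C9, a pore-forming subunit of the membrane attack complex, had 2018, 2489.5, 2946, 2274 and 2321 in vehicle and 4031, 3278, 2994, 3331 and 2898 with BNF. Only vehicle replicate 3 overlapped the BNF wells. The rise was 1.37-fold (adjusted p = 0.0114), which was lost without BNF replicate 1 or vehicle replicate 1 (adjusted p = 0.0536 to 0.0564), after median centring (adjusted p = 0.0578) and in the fit of the 10 arrays alone (adjusted p = 0.116). In the same list of 27 coagulation and complement genes, F9, clotting factor IX, fell 1.24-fold (adjusted p = 0.00582), though not by the test in the fit of the 10 arrays alone (adjusted p = 0.115). The list's median was -0.12.

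Crp, C-reactive protein, had the largest fall among called genes above the median signal: 12961, 10458, 11832, 13342 and 12467 in vehicle against 5199, 6151, 6393, 5972 and 5634 with BNF. Every BNF well was far below every vehicle well. The fall was 2.08-fold (log2 fold change -1.06, SE 0.12, adjusted p = 4.89e-06). Apcs, serum amyloid P, the other short pentraxin, had 17944, 19373, 18230.3, 18664 and 18897 in vehicle and 15581, 15407, 14823, 15693 and 16552 with BNF. These groups did not overlap either, and the fall was 1.19-fold (log2 fold change -0.25, SE 0.04, adjusted p = 0.00043). These 2 genes were the called members of 28 acute phase genes, against 0.521% of all genes called lower. The list's median log2 fold change was -0.07. Fgb, a fibrinogen chain of that list, had a log2 fold change of -0.06 (SE 0.07).

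Among 30 conjugation enzymes, Ugt2b and Ugt2b1, which attach glucuronic acid to steroids and drugs, were called lower, against 0.521% of all genes. Ugt2b had 21962, 18454, 21028, 21989 and 18662 in vehicle and 10066, 13655, 12719, 12963 and 12398 with BNF. The groups were far apart, and the fall was 1.66-fold (log2 fold change -0.73, SE 0.08, adjusted p = 7.41e-07). A second, dimmer probe set of Ugt2b pointed the same way without passing the test (log2 fold change -1.22, SE 0.28, adjusted p = 0.0538). Ugt2b1 had 5946, 4281, 5389.8, 4807 and 5209 in vehicle and 2799, 4393, 3717, 3489 and 3229 with BNF. Vehicle replicate 2 lay below BNF replicate 2. The fall was 1.46-fold (adjusted p = 0.0114), and the call was lost without BNF replicate 1 or vehicle replicate 1 (adjusted p = 0.0536 to 0.0556) and in the fit of the 10 arrays alone (adjusted p = 0.072). The conjugation list had 22 of 30 negative values and a median of -0.17, where all genes had 6250 negative values of 14217 and a median of 0.02. UGT2B genes are closely alike in sequence, so signal shared between them cannot be told apart.

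Of 19 measured members of the P450 system outside the battery, 4 were called lower, against 0.521% of all genes. Cyp2e1, which oxidises ethanol and small solvents, had 3382, 3036, 3908, 3013 and 3170.1 in vehicle and 2353, 2786, 2261, 2216 and 2239 with BNF. The groups did not overlap, and the fall was 1.39-fold (log2 fold change -0.48, SE 0.08, adjusted p = 0.000459). Cyp2d2 fell 1.44-fold, from 6880.2 ± 1188 (SD, n = 5) to 4749.6 ± 547, without overlap. It was not called in the fit of the 10 arrays alone (adjusted p = 0.0907). Cyp3a18 (1.52-fold, adjusted p = 0.0222) and Por (1.27-fold, adjusted p = 0.0337), the reductase that feeds electrons to all microsomal P450s, had overlapping groups. Por kept its call only without BNF replicate 2 or vehicle replicate 2 (adjusted p up to 0.161 without any other array). Cyp3a18 lost its call without BNF replicate 1, 3 or 5 or vehicle replicate 3 or 5 (adjusted p up to 0.0941). In the fit of the 10 arrays alone, Cyp3a18 had an adjusted p of 0.155 and Por of 0.158, and Por was not called after median centring (adjusted p = 0.0628). These 2 genes were also the called members of 12 CAR and PXR receptors and targets, against 0.521% of all genes called lower. CAR and PXR are the other xenobiotic receptors of liver.

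In retinoid metabolism, the retinol dehydrogenases Rdh7 and Rdh16 were called lower of 19 genes, against 0.521% of all genes. Rdh7 had 9329, 8114, 10820.3, 10109 and 12870.3 in vehicle and 5279, 7834, 5914, 6870.1 and 5451 with BNF. The gap between the groups was narrow, from 7834 to 8114, and the fall was 1.63-fold (log2 fold change -0.71, SE 0.10, adjusted p = 0.000209). Rdh16 fell 1.43-fold (adjusted p = 0.0142), from 5347 ± 1146 (SD, n = 5) to 3712 ± 559.8, with overlapping wells. Its call was lost without BNF replicate 1 or vehicle replicate 1 or 5 (adjusted p = 0.0501 to 0.069), and in the fit of the 10 arrays alone (adjusted p = 0.167).

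**Figure D3:**
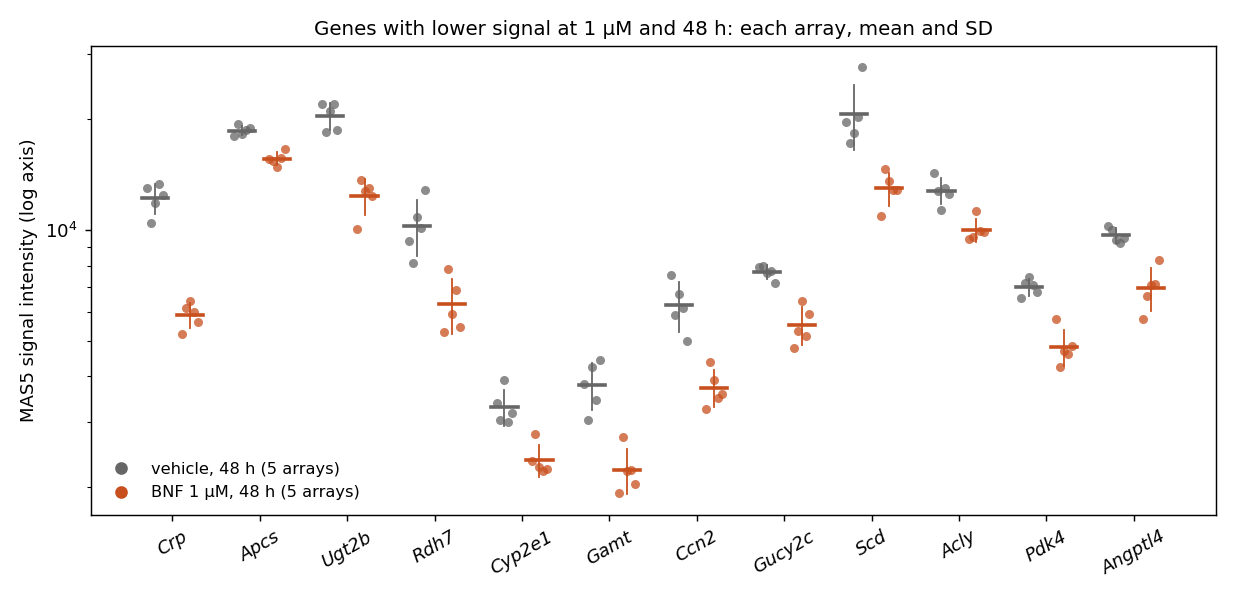
Signal intensity (log axis) of 12 lower genes in each of the 5 vehicle (grey) and 5 BNF wells (orange) at 48 h, with the group mean as a bar and the SD as a line. The groups do not overlap for any of the 12, from Crp, with the widest gap, to Rdh7 and Acly, whose nearest wells almost meet. Most of the 12 were chosen for separate groups, so this adds no support. Over all genes 2.62% had groups that do not overlap. Called lower genes with overlapping groups, such as Ugt2b1, Por and Rdh16, are not drawn.

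Among 27 fatty acid synthesis genes Scd, Acly and Acss2 were called, all lower, against 0.521% of all genes. Scd, the stearoyl-CoA desaturase, had 19678, 17219, 18368, 20269.9 and 27674 in vehicle and 10908, 14617, 13588, 12831 and 12873 with BNF. No wells overlapped, and the fall was 1.58-fold (log2 fold change -0.66, SE 0.09, adjusted p = 0.00013). Acly, which makes cytosolic acetyl-CoA from citrate, had 14271, 12765, 11347, 12997 and 12536 in vehicle and 9450.2, 9561, 11245, 9949 and 9850.2 with BNF. Vehicle replicate 3 and BNF replicate 3 nearly met, and the fall was 1.28-fold (log2 fold change -0.35, SE 0.06, adjusted p = 0.00103). Acss2, which makes acetyl-CoA from acetate, fell 1.18-fold (adjusted p = 0.0328). It kept its call only without BNF replicate 2 or 3 or vehicle replicate 2 (adjusted p up to 0.138 otherwise), and was not called in the fit of the 10 arrays alone (adjusted p = 0.122) or after median centring (adjusted p = 0.0602). The list as a whole had 10 positive and 17 negative values and a median of -0.04. Ebp, a sterol isomerase, fell 1.26-fold (adjusted p = 0.0114; 0.0953 in the fit of the 10 arrays alone) and was the called member of 19 cholesterol synthesis genes.

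Fat oxidation had 2 of 31 genes called lower, against 0.521% of all genes. Pdk4, a kinase that shuts pyruvate out of mitochondrial oxidation, had 6509.6, 7177, 7446, 7077 and 6771 in vehicle and 5711, 4233, 4685, 4598 and 4827 with BNF. The groups did not overlap, and the fall was 1.46-fold (log2 fold change -0.55, SE 0.08, adjusted p = 0.00013). Angptl4, a secreted inhibitor of lipoprotein lipase, had 10257, 9969, 9415, 9206 and 9504 in vehicle and 5714, 6619, 7104, 7115 and 8286 with BNF. Here too the groups were apart, and the fall was 1.40-fold (log2 fold change -0.48, SE 0.10, adjusted p = 0.00903). Neither gene is an enzyme of beta-oxidation. Over the list, 28 of 31 values were negative with a median of -0.14, where all genes had 6250 negative values of 14217. After median centring 31 of 31 were negative, but that scaling lowered most genes and made 8870 of 14217 negative. After quantile normalization 28 of 31 were negative, with a median of -0.10.

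Among 27 genes of glucose and glycogen metabolism, Pfkfb1, Slc37a4 and Fbp1 were called lower, against 0.521% of all genes. Pfkfb1, which sets the level of fructose 2,6-bisphosphate, had 4033, 3294, 4788, 4950.3 and 4958 in vehicle and 2117, 3354, 2887, 2845 and 2599 with BNF. Vehicle replicate 2 and BNF replicate 2 overlapped slightly. The fall was 1.59-fold (log2 fold change -0.67, SE 0.12, adjusted p = 0.00315), and it just missed the threshold in the fit of the 10 arrays alone (adjusted p = 0.0543). Slc37a4, the glucose 6-phosphate transporter, fell 1.43-fold (adjusted p = 0.0308) and Fbp1, fructose 1,6-bisphosphatase of gluconeogenesis, 1.29-fold (adjusted p = 0.0281). Both had overlapping wells and kept their call only without BNF replicate 2 or vehicle replicate 2 (adjusted p up to 0.148 and 0.096 otherwise). Neither was called in the fit of the 10 arrays alone (adjusted p = 0.137 and 0.0712) or with no mean-variance trend.

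Several lists leaned lower without many calls. Gamt, which makes creatine by methylating guanidinoacetate, was the only called gene of 42 in urea cycle and amino acid catabolism: 3808, 3051, 4242, 3451 and 4421 in vehicle against 1932, 2740.0, 2215, 2220.4 and 2044 with BNF. Its wells did not overlap, and it fell 1.70-fold (log2 fold change -0.76, SE 0.12, adjusted p = 0.000621). In that list 38 of 42 values were negative, with a median of -0.13. Oxidative phosphorylation had 35 of 38 negative values and a median of -0.10, but 29 of 38 negative and -0.05 after quantile normalization. Its called member, the complex I subunit Ndufs7, fell 1.16-fold (adjusted p = 0.0458) and kept its call only without BNF replicate 2 or vehicle replicate 4 (adjusted p up to 0.14 otherwise). It was not called in the fit of the 10 arrays alone (adjusted p = 0.115), after median centring (adjusted p = 0.0729) or after quantile normalization (adjusted p = 0.0579). Plasma proteins had 20 of 25 negative values, a median of -0.17 and 0 calls. With 0.809% of all genes called, 0 of 25 is near that share. After quantile normalization the median of the plasma proteins was -0.07 with 3 members called higher and 2 lower.

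**Figure D4:**
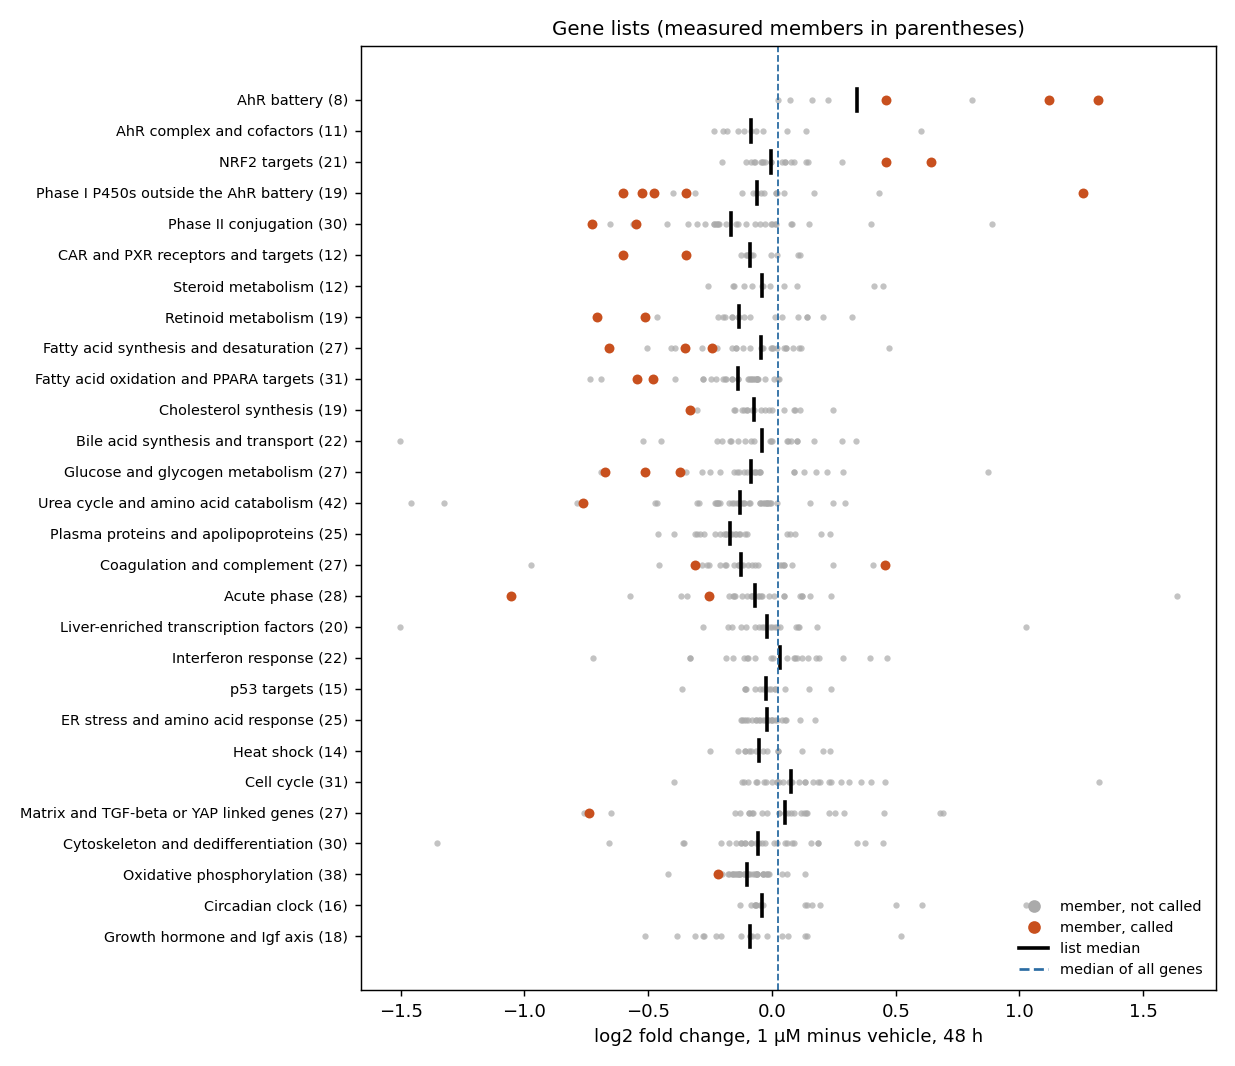
Each row is a gene list with its number of measured members in parentheses, and each point a member's log2 fold change, 1 µM BNF minus vehicle at 48 h; orange points were called, grey points were not, black bars mark list medians and the dashed line the median of all genes (0.02). Among the lists drawn, which leave out cell type markers, the AhR battery has the highest median (0.34) and plasma proteins the lowest (-0.17). Most list medians lie left of the dashed line, among them conjugation (-0.17), fat oxidation (-0.14), retinoid metabolism (-0.13) and amino acid catabolism (-0.13).

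Ccn2, a matricellular protein induced by TGF-beta and YAP signalling, was the called member of 27 matrix and TGF-beta linked genes. It had 7559, 5856, 6712, 6121 and 4982 in vehicle and 3265, 4375, 3918, 3492 and 3579.7 with BNF. The groups did not overlap, and it fell 1.67-fold (log2 fold change -0.74, SE 0.10, adjusted p = 9.17e-05). Gucy2c, a receptor guanylate cyclase, fell 1.40-fold with well separated groups, 7179 to 7997 in vehicle and 4766 to 6426 with BNF (adjusted p = 0.000422). Poteml2 fell 1.54-fold (adjusted p = 0.00562). Hoga1, a mitochondrial aldolase of hydroxyproline breakdown, fell 1.46-fold (adjusted p = 0.00112) but was not called when its probe sets were averaged (adjusted p = 0.521).

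The co-chaperone Dnajb4 (1.55-fold lower, adjusted p = 0.0353), the arginyltransferase Ate1 (1.52-fold lower, adjusted p = 0.0318) and Gchfr, a regulator of tetrahydrobiopterin synthesis (1.40-fold lower, adjusted p = 0.0223), were among the genes chosen for groups that do not overlap. For Dnajb4 the BNF wells ranged widely, 1786 to 3897, against 4054 to 4609 in vehicle. It kept its call only without BNF replicate 2 or 3 and Ate1 only without BNF replicate 2 (adjusted p up to 0.17 and 0.148 otherwise). Dnajb4 was not called in the fit of the 10 arrays alone (adjusted p = 0.129) or after median centring (adjusted p = 0.0658). Averaging both probe sets of Ate1 removed its call (log2 fold change -0.32 against -0.61, adjusted p = 0.105), and the other probe set alone gave -0.04 (SE 0.06). Gchfr lost its call without BNF replicate 1 or 3 or vehicle replicate 1, 2 or 4 (adjusted p up to 0.0808) and in the fit of the 10 arrays alone (adjusted p = 0.098).

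No gene was called among 20 liver-enriched transcription factors, 22 bile acid genes, 12 steroid genes, 22 interferon genes, 15 p53 targets, 25 ER stress genes, 14 heat shock genes, 31 cell cycle genes, 30 cytoskeleton genes, 16 clock genes or 18 growth hormone axis genes. Their medians ran from -0.09 for the growth hormone axis to 0.08 for the cell cycle, the latter close to 0 (-0.00) after median centring. Over all genes 0.809% were called, so 0 calls in lists of this size is near that share. It does not show that the members were unchanged. Hnf4a, a master regulator of hepatocyte genes, had 6926 to 8272 in vehicle and 7164 to 8279.9 with BNF (log2 fold change 0.02, SE 0.06). Of the 13 hepatocyte markers, Cyp2e1 was the called one. The list had 11 of 13 negative values and a median log2 fold change of -0.13, but 9 of 13 and -0.02 after quantile normalization. Those not called included Alb (-0.13, SE 0.09), Ttr (-0.16, SE 0.08), Apoa1 (-0.10, SE 0.07), Cps1 (-0.13, SE 0.08), Tat (-0.04, SE 0.06) and Ahsg (0.09, SE 0.05) on the log2 scale.

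No marker of another liver cell type was called, but the stellate cell and fibroblast markers had a positive median. None of the 15 Kupffer cell, 19 stellate cell, 14 endothelial, 10 cholangiocyte or 15 lymphocyte markers was called. With 0.809% of all genes called, 0 calls is near that share for lists of this size. Those with a mean above the median gene numbered 6 Kupffer cell, 1 stellate cell, 1 endothelial, 2 cholangiocyte and 1 lymphocyte marker. The summed signal of the Kupffer cell markers was 20480 to 22528 in vehicle and 18670 to 22500 with BNF, and that of the stellate cell markers 4821 to 6923.8 and 5477.1 to 6253.5. For endothelial markers it was 2696.5 to 3980.1 and 2638.7 to 3947. Cholangiocyte markers summed to 13890 to 15933 and 13569 to 14016, and lymphocyte markers to 3350.5 to 4753.5 and 2673.5 to 4386.6. All of these ranges overlapped. A sum follows the brightest markers. By gene, the stellate cell and fibroblast markers had a median log2 fold change of 0.27, against 0.02 over all genes, with 12 of 19 values positive and a highest value of 1.15. Their median was 0.19 after median centring and 0.22 after quantile normalization, where 11 of 19 were positive under each. The stellate cell and fibroblast markers were mostly dim, 1 of 19 above the median gene, and fold changes of dim genes scatter widely. The other medians were 0.00 for Kupffer cell, -0.07 for endothelial, 0.08 for cholangiocyte and -0.08 for lymphocyte markers. The part of these cells in the results was not tested. Hepatocyte markers summed to 480760 to 579990 in vehicle and 468480 to 533570 with BNF. In bulk RNA fewer cells of a type and less RNA per cell cannot be told apart.

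The largest folds belonged to dim genes. Of the 13 genes that moved at least 2-fold, 9 had a higher group mean at or below the median gene. Smim1 fell 6.31-fold, from 126, 157, 194, 25 and 169.9 in vehicle to 27.4, 17, 16.3, 19.8 and 10.8 with BNF, and vehicle replicate 4 lay among the BNF wells. Gimap1 fell 3.86-fold (165 ± 62.5 to 40.9 ± 11.1, SD, n = 5), LOC102552347 3.19-fold and Zfp414, a zinc finger protein, 2.45-fold. Meox1, a homeobox gene, was higher 4.20-fold with signals of 4.6 to 15.6 in vehicle and 18.9 to 40.5 with BNF. Slurp1 (3.52-fold), Pla2r1, a phospholipase receptor (3.45-fold), Adgrb2, an adhesion G protein-coupled receptor (3.17-fold), and Fkbp7, a prolyl isomerase (2.10-fold), were the other higher ones.

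Their adjusted p-values were 0.0168 to 0.0485, and none was called in the fit of the 10 arrays alone (adjusted p = 0.0671 to 0.187). With 64 added to each signal, the log2 fold change of Meox1 was 0.44 (adjusted p = 0.186) against 2.07 without it, and that of Smim1 -1.18 against -2.66. Meox1 kept its call only without vehicle replicate 2 and Slurp1 only without BNF replicate 2 or vehicle replicate 2 (adjusted p up to 0.145 and 0.125 otherwise). LOC102552347 kept it only without BNF replicate 2 or 4 or vehicle replicate 5 (up to 0.0886). Smim1 lost its call without BNF replicate 5 or vehicle replicate 1, 3 or 5 (up to 0.0635), Adgrb2 without BNF replicate 5 or vehicle replicate 1 or 5 (up to 0.0884) and Gimap1 without BNF replicate 1 or vehicle replicate 1 or 4 (up to 0.0727). Pla2r1 lost it without BNF replicate 1 or 4 or vehicle replicate 1 or 4 (up to 0.086), Fkbp7 without BNF replicate 1, 3 or 4 or vehicle replicate 3 or 5 (up to 0.12) and Zfp414 without BNF replicate 1, 3 or 5 or vehicle replicate 1, 3 or 5 (up to 0.152). Averaging the probe sets of Gimap1 removed its call (adjusted p = 0.88), and its other probe set had the opposite sign (log2 fold change 1.26, SE 0.80). Meox1, Slurp1, Fkbp7 and Zfp414 were not called after median centring (adjusted p = 0.0862, 0.0681, 0.0578 and 0.0501).

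Complete separation of the 5 BNF wells from the 5 vehicle wells was seen for 372 genes (2.62%), 220 higher and 152 lower. Of the 115 called genes 88 were among them, 35 higher and 53 lower, while 27 overlapped. The called higher genes had a median percentile of mean signal of 71.1 and the lower genes 88.1, so calls came mostly from the brighter part of the array. For 27 called genes the array holds 37 further probe sets. Of these, 29 had the same sign and 8 the opposite, and none was called in the fit of all 31042 probe sets, including those of Pdk4 (log2 fold change -0.19, adjusted p = 0.709) and Glrx (0.24, adjusted p = 0.276).

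A further 60 called genes fell outside the rule for named genes, 19 higher by 1.11 to 1.66-fold and 41 lower by 1.11 to 1.78-fold. The following examples were chosen after their values were seen. On the higher side were Sod2, the mitochondrial superoxide dismutase (21084 to 25874, 1.22-fold), Selenbp1, a selenium-binding methanethiol oxidase (14158 to 19459, 1.39-fold), the carnitine and ergothioneine transporter Slc22a4 (2468 to 3012, 1.22-fold) and Ceacam1, a cell adhesion receptor of hepatocytes (3137 to 3863, 1.23-fold). On the lower side were Car5a, the mitochondrial carbonic anhydrase (2319 to 1285, 1.78-fold), Spp2, a secreted phosphoprotein (12174 to 8951, 1.36-fold), Gpd1, glycerol 3-phosphate dehydrogenase (11703 to 9091, 1.29-fold), Insig2, which restrains sterol synthesis (7019.8 to 5288, 1.33-fold), Asgr2, an asialoglycoprotein receptor subunit (4821 to 3681, 1.31-fold), and the growth factor receptor Egfr (5922 to 5001, 1.19-fold). The values are mean signals in vehicle and with BNF. These examples were not followed individually through the other settings. After median centring 8 genes in all were called higher. Cyp1a1, Cyp1a2, Nqo1, Cyp2a1, Akr1b8, Adgrb2 and Pla2r1 were among those 8, so most of the higher examples lost their call. Both further probe sets of Egfr had the opposite sign (log2 fold changes 0.07 and 0.04 against -0.25), without a call.

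The same dose at 24 h was measured in other wells, with their own vehicle wells. The cells of both times may come from the same lot, and both contrasts come from 1 fit with a shared estimate of spread. Of the 74 lower genes, 38 were called lower at 24 h, where 2.4% of all genes were, and 68 had the same sign. Of the 41 higher genes, 14 were called higher at 24 h, where 1.91% of all genes were, and 33 had the same sign. The 52 genes called the same way at both times were 45.2% of the 48 h list and 8.5% of the 612 genes called at 24 h. Without vehicle 48 h replicate 1 or 5 the shared count was 32 or 34. At 24 h the lower genes had a median log2 fold change of -0.26, against -0.37 at 48 h, and the higher genes 0.20 against 0.39, but the 48 h values are those that selected the genes.

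Among the genes called at both times, Cyp1a1 had a log2 fold change of 1.94 at 24 h, Nqo1 0.70, Cyp1a2 0.64, Cyp2a1 0.97 and Akr1b8 0.60. Crp (-0.67), Ugt2b (-0.43), Gamt (-1.05), Ccn2 (-0.74), Cyp2e1 (-0.48), Scd (-0.55) and Gucy2c (-0.85) were called lower at 24 h. Some 48 h calls had no counterpart. At 24 h the log2 fold change of Pdk4 was -0.07 (adjusted p = 0.702) and that of Apcs -0.06 (adjusted p = 0.445), while Angptl4 (-0.30, adjusted p = 0.0716) and Ugt2b1 (-0.32, adjusted p = 0.102) missed the threshold. None of these 4 differed between the times in the test of the difference itself (adjusted p = 0.0957, 0.232, 0.726 and 0.699).

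**Figure D5:**
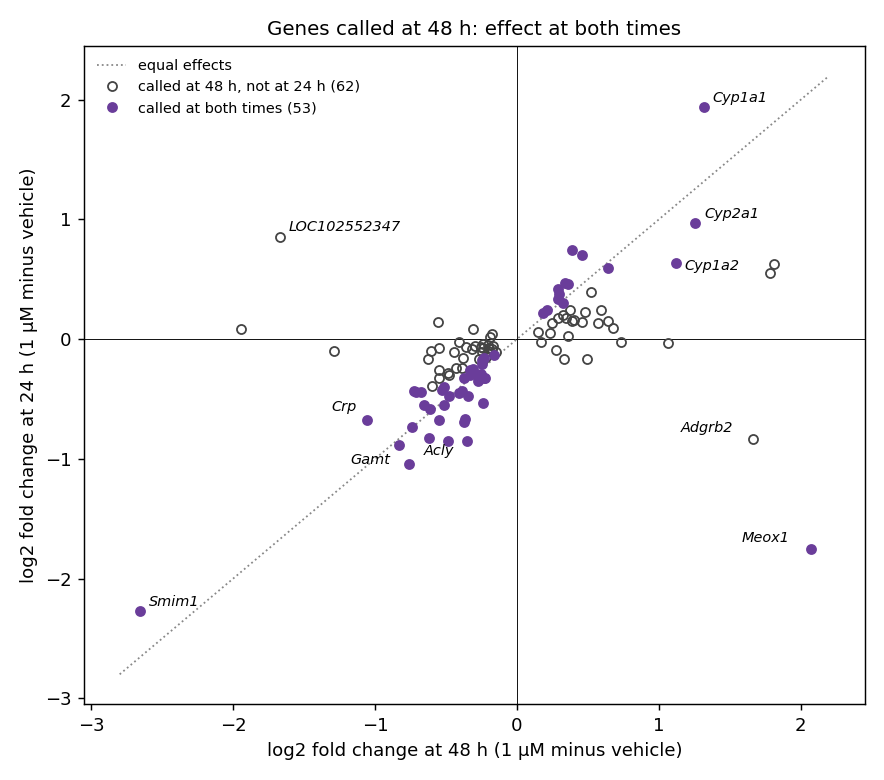
Each point is 1 of the 115 genes called at 48 h, with its log2 fold change, 1 µM BNF minus vehicle, at 48 h on the horizontal axis and at 24 h on the vertical axis; filled points were called at both times and the dotted line marks equal effects. Points lie mostly at the lower left and upper right, and Meox1, at the lower right, was called in opposite directions.

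The effect of 1 µM differed between 48 and 24 h for 13 genes (0.0914%), 7 with the higher effect at 48 h, and 1319 genes had an unadjusted p under 0.05. Slc6a9, a glycine transporter, gave the smallest p: its BNF wells at 48 h were 8144, 6873, 7025, 7117 and 7028 against 6256, 6380.1, 6454, 6422 and 6082 in vehicle, a log2 fold change of 0.19 (adjusted p = 0.115). At 24 h it fell by 0.33 on the log2 scale (adjusted p = 0.000577), so the effects differed by 0.52 (SE 0.08, adjusted p = 0.00465). For Acly the fall was deeper at 24 h, -0.85 against -0.35, a difference of 0.50 (SE 0.08, adjusted p = 0.0115). This count was sensitive to the arrays used. It was 2, 3, 6 or 2 without BNF 48 h replicate 2, 3, 4 or 5, and 3, 3, 2, 4 or 22 without vehicle 48 h replicate 1, 2, 3, 4 or 5. At the 24 h end it was 3, 2 or 5 without BNF replicate 3, 4 or 5, and 2, 20 or 2 without vehicle replicate 1, 3 or 5. No gene was called after median centring.

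The higher dose at 48 h is set beside these values for the same genes; its contrast with vehicle shares the vehicle wells, and its contrast with 1 µM shares the BNF wells, so neither supports the 1 µM result. Between 100 and 1 µM, 6.57% of all genes were called higher and 7.39% lower. Of the 41 genes called higher at 1 µM, 11 were called further up at 100 µM, 8 back down and 22 not. Of the 74 lower genes, 43 were called further down, 11 back up and 20 not. The 1 µM wells that chose these genes are in this contrast, so moves back can follow from that choice. Cyp1a1 was 9525 ± 4288 (SD, n = 5) in vehicle, 22607 ± 5173 at 1 µM and 50727 ± 6829 at 100 µM, a further log2 difference of 1.19 (SE 0.20, adjusted p = 7.84e-05). Cyp2a1 went from 3472 ± 377 to 8259 ± 459 and 13303 ± 605. Akr1b8 went from 7169 ± 891 to 11129 ± 760.3 and 23498 ± 1440.1. Both were higher at 100 than at 1 µM (adjusted p = 1.55e-09 and 3.73e-12).

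Cyp1b1 and Tiparp, not called at 1 µM, stood at 2507 ± 353 and 6754 ± 278 (SD, n = 5) at 100 µM, above 736 ± 126 and 2839.8 ± 201 at 1 µM (log2 differences of 1.77, SE 0.17, and 1.25, SE 0.08). Among the lower genes Crp reached 2322 ± 509, Ccn2 973 ± 149.8 and Ugt2b 5156 ± 506 at 100 µM, each below its 1 µM level. Ugt2b1 ran the other way. It was 5126 ± 625 in vehicle, 3525 ± 593 at 1 µM and 11712 ± 1382 at 100 µM, so that 1 µM was below and 100 µM above vehicle. The log2 difference of 100 from 1 µM was 1.74 (SE 0.11, adjusted p = 6.54e-13), and 100 µM against vehicle gave 1.19 (adjusted p = 1.31e-09). C9 was also nearer to vehicle, at 2476 ± 179 against 3306 ± 445 at 1 µM (adjusted p = 0.00234). The 1 µM wells that gave C9 its call enter this contrast, so the difference may follow from that choice.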

How the data were processed

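RNA of the 10 arrays was labelled with biotin and hybridised to Affymetrix rat arrays. The authors deposited signal intensity per probe set on a linear scale, and MAS5 is the tool that the submitters' processing notes name, its version not given in the sources used here. All 30 arrays had a trimmed mean of 1500.6 (2% trimmed at each end), so the arrays had been scaled before deposit and a shift common to most genes would be hidden. Background settings and detection calls were not used here. The 57 control probe sets were left out. Of 31099 probe sets, 20826 had 1 symbol in the platform annotation, 436 several and 9780 none, and 20758 of the first were renamed or kept through the GRCr8 gene table. The probe set of highest mean log2 intensity over 30 arrays stood for each gene, giving 14217 genes, 4525 of them with over 1 probe set. The probe sets of 5 named genes (Nqo1, Ahr, Flot2, Pfkfb1 and Ahsg) have a suffix that marks several transcripts. No unmapped columns (0) were present. Promoter windows and their coordinates came from a RefSeq table of GRCr8, and no whole genome sequence was used. No array pair was identical (0).

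Log2 intensities with no constant were fitted with a mean per group over all 6 groups and 30 arrays (R 4.3.3, limma 3.58.1, eBayes with a mean-variance trend, 24 residual degrees of freedom). Benjamini-Hochberg adjustment ran over all 14217 genes, with calls at 0.05. Folds are 2 to the power of the log2 fold change and SE is its standard error. Precision is limited by the number of arrays, with a median SD per gene of 0.20 log2 units in vehicle and 0.19 with BNF. Replicate numbers only name an array. The numbers in the titles run from 1 to 30 in 5 sets of 6, each with 1 array of every group. The fit was tested on simulated data.

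Named genes were the AhR battery and complex, the 15 highest and 15 lowest called genes with separate groups and a mean above the median gene, called members of each list, 5 genes per direction for the difference between times, hepatocyte markers, and called genes at or above 2-fold. The comparison, the 34 lists and this rule were chosen with earlier results of these data known. Alternatives were a fit of the 10 arrays, median centring, quantile normalization, 64 added to the signal, genes at or above the median signal, the mean of probe sets, all probe sets, no trend, array weights, the running number in the titles as a covariate, and leaving out each array in turn.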

Additional observations from a re-analysis of the deposited data

Results flagged for a closer look

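Within groups of 5 wells, 12 of 182 groups of named genes had a single well far from the others by Dixon's criterion, which chance gives for about 1 in 20 groups. With BNF, the well apart was replicate 1 for Ahr (283.997), Slc6a9 (8144.16) and Meox1 (18.8535), replicate 2 for Cyp2e1 (2786.16) and Fbp1 (9556.2), replicate 3 for Acly (11245.3) and Sltm (5751.58), replicate 4 for LOC102552347 (97.4762) and replicate 5 for Adgrb2 (162.61). In vehicle it was replicate 1 for Arnt2 (754.042), replicate 2 for Ncoa2 (90.3702) and replicate 5 for Crebbp (2895.77). No single array held most of these wells.

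The effect of 1 µM BNF differed between 48 and 24 h, by the test of the difference over all genes in limma, for 11 named genes. The effect at 48 h was the higher by 0.519 log2 units for Slc6a9, 0.4969 for Acly, 0.3611 for Copg1, a coatomer subunit, 0.387 for Itih1, a heavy chain of the inter-alpha-trypsin inhibitor, 3.821 for Meox1 and 2.502 for Adgrb2. Meox1 and Adgrb2 are dim: at 24 h Meox1 had a mean of 50.2 ± 36.6 (SD, n = 5) in vehicle and 12.2 ± 2.7 with BNF. For 5 genes the 48 h effect was the lower, by -0.2682 for Pdcl3, -0.4932 for Fgfr1op2, -0.5452 for Pdrg1, -0.2735 for Arfrp1 and -0.4614 for Sltm. Of these, Fgfr1op2 was higher with BNF at 24 h, 5558 ± 277 against 4099.6 ± 270.2, and had 5012 ± 481 against 5202 ± 520.0 at 48 h. All 11 lost their call after median centring, where 0 genes were called.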

How the results depend on the processing

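No called named gene changed direction under the 9 settings and 10 array removals run on named genes; the fit of all probe sets was run for counts of calls only, and further probe sets of Gimap1, Stau2 and Rnf123 had the opposite sign. Calls at 48 h numbered 115 (41 higher, 74 lower). They numbered 30 (8 higher, 22 lower) in the fit of the 10 arrays alone and 66 with 8 higher after median centring. Lower calls were 48 with no mean-variance trend, and higher calls 24 over all probe sets. The difference between the times had 0 genes after median centring, 23 after quantile normalization, 1 with the mean of probe sets, 4 with no trend and 25 with array weights, against 13. The cause was not tested.

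Leaving out each array in turn gave 46 to 153 calls, 14 to 48 higher and 32 to 105 lower. It gave 2 to 22 genes that differed between times, 32 to 75 called the same way at both times against 52, and 1611 to 1919 between 100 and 1 µM against 1984. Removals for the difference between times, the shared count and the dose contrast, and all other settings for the shared count, were added after the data were seen.

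Of 55 called named genes, 25 kept their call in all 10 removals and 17 also under all 9 settings. The labels do not say that arrays of a set of 6 consecutive title numbers share anything. Deviations of BNF and vehicle wells of the same set correlated at -0.0379 to 0.0217 over genes, 0 of 5 over 0.1, and 1 of 5 BNF wells correlated best with its own set. With the set as a replicate block, added after the data were seen, 108 genes were called (39 higher, 69 lower), 102 of them among the 115, and 48 of the 55 named genes, including all 17 above, kept their call. Plekhm2, Exosc5, Ate1, Por, Acss2, Ndufs7 and Meox1 did not. The block gave 9 genes that differed between times, 50 shared and 2036 between doses. For dim genes, signal over background limits the size of a fold.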

Other observations

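Probe sets that the annotation does not tie to a single symbol were outside the gene comparison. In the fit of all 31042 probe sets, 78 were called. Of 9780 with no symbol, 1 was higher and 5 were lower (0.0613%). The higher went from 83.02 ± 38.954 (SD, n = 5) in vehicle to 265.98 ± 34.789 with BNF, 3.71-fold (limma adjusted p = 0.0142). The lower ones included a probe set that went from 8733.8 ± 1262.2 to 6037.8 ± 747.4 (1.44-fold, adjusted p = 0.00171), which was also lower at 24 h (log2 fold change -0.67, adjusted p = 2.26e-05).

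Of 436 probe sets with several symbols, 3 were called; no gene is named from them. The strongest rose from 5979.7 ± 587.86 to 13859 ± 1084.8 (2.32-fold, adjusted p = 6.68e-13) and another from 27409 ± 575.7 to 41169 ± 2447.9 (log2 fold change 0.59, adjusted p = 3.48e-08), both also higher at 24 h (log2 fold changes 0.82 and 0.57). The third fell 1.34-fold (adjusted p = 0.00115).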
